A study of Mus musculus with 9 samples.

Results

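The clustered protocadherin genes are 57 of the 55401 genes in the count table from mouse testis. They were taken as the protein-coding genes of the GENCODE mouse annotation (release vM21) whose symbol names an alpha, beta or gamma protocadherin, which gave 14 alpha, 22 beta and 21 gamma genes. A further gene with a matching symbol, Pcdhgb8, was left out because the annotation types it as a polymorphic pseudogene. The testes came from wild-type (WT) male mice, which the methods name as ICR, and no age is given for these samples in the sources used here. The assay, acRIP-seq, pulls polyadenylated RNA down with an antibody that binds ac4C, the acetylated cytidine N4-acetylcytidine, and sequences what stays on the beads. Of the 9 libraries, 3 held RNA before precipitation (input), 3 what was pulled down by a control immunoglobulin (IgG) and 3 what was pulled down by the ac4C antibody (acRIP). By the methods, all libraries were made by Smart-seq2, which starts from oligo(dT) primers and amplifies the cDNA, and the RNA pulled down was not enough to measure its concentration before library preparation. No source used here says whether the 3 libraries of a group came from separate animals or separate precipitations, so p-values measure the spread between these libraries, which may be technical.

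Clustered protocadherins are cadherin-type adhesion proteins of the cell surface, known mainly from neurons, where each cell uses a small set of them and where matching sets on contacting neurites mark them as belonging to the same cell. In the alpha and gamma clusters, each gene has its own first exon, which encodes the extracellular part, the membrane span and a short cytoplasmic stretch, and this exon is spliced to constant exons that all genes of the cluster use. A beta gene is a single exon with no constant part. The promoter of each first exon is chosen with the help of the insulator protein CTCF and cohesin, whereas the C-type genes at the cluster ends (Pcdhac1, Pcdhac2, Pcdhgc3, Pcdhgc4 and Pcdhgc5) are regulated differently and are used more evenly among neurons. The comparison of acRIP with IgG and with input asks which of their transcripts were recovered with the ac4C antibody.

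All 57 genes lie on the plus strand of chromosome 18 (mm10 coordinates, as in GENCODE vM21). The alpha genes span 36930184 to 37187661, the beta genes 37264938 to 37524479 and the gamma genes 37661793 to 37841873. Symbols do not separate all of them: Pcdha11 is the name of 2 members, ENSMUSG00000007440 and ENSMUSG00000102206.

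The exon structure decided how much of each gene could be counted. All 14 alpha genes share 2860 exon bases, and all 21 gamma genes share 2116. In the whole table, 1246 genes have no exon base of their own, and 0 of them had a count in any library, including 438 that overlap only genes of the opposite strand, whereas 65.9% of the other genes had a count. The counts of an alpha or gamma gene therefore came from the bases it shares with no other gene, mainly its own first exon. The median unshared length was 2475 bases in the alpha, 3714 in the beta and 2601 in the gamma cluster. Pcdhga10 has 0 unshared bases, so its counts of 0 measure nothing, and Pcdha4 has 404 of 5768. Among the beta genes, 19 of 22 share no base, and Pcdhb12 shares 63.5% of its length with an antisense gene. By sequence the first exons were mostly distinct: at the read length given in the methods, at most 5.70% of the windows in any member's unshared exons occurred again, on either strand, in the region of the clusters.

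**Figure D1:**
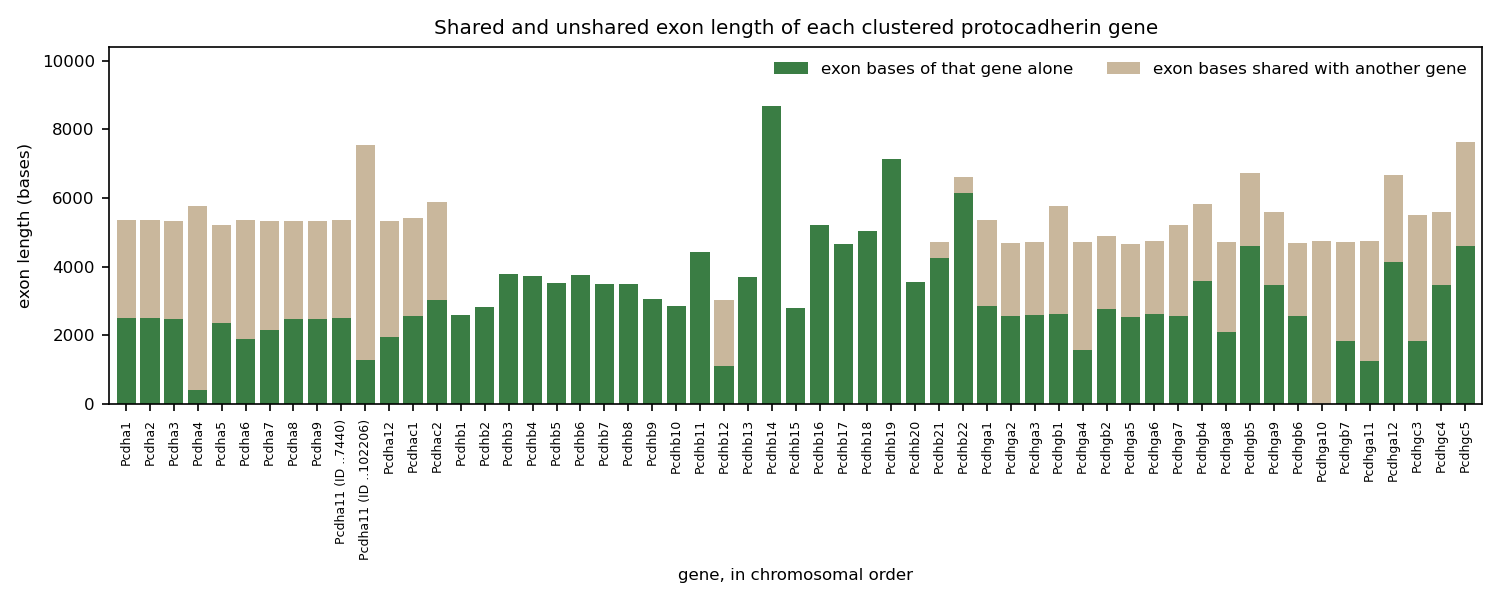
Exon length of each clustered protocadherin gene in bases (y axis), with genes in chromosomal order (x axis) and each bar split into bases of that gene alone and bases shared with another annotated gene. The alpha genes on the left and the gamma genes on the right share part of every bar, 19 of the 22 beta genes share nothing, and Pcdhga10 has no base of its own.

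Total counts ranged from 22023925 to 31340090 in input, 14647542 to 18786779 in IgG and 16025779 to 18639134 in acRIP. Testis markers were present in every group. Spermatid genes summed to between 17895 and 22693 counts per 1000000 counts of the library (CPM), and Sertoli cell genes to between 823 and 1076, although Rhox5 of the Sertoli list was at 0 in all libraries. Of 14 neuron and glia markers, 10 had counts in all 3 input, 12 in all 3 IgG and 11 in all 3 acRIP libraries, and their sum ranged from 137 to 140 CPM in input, 124 to 132 in IgG and 115 to 117 in acRIP. Snap25 and Nefl were at 0 in all IgG and acRIP libraries and Nefm in all acRIP libraries, and the part of neural cells in the results below was not tested. Erythrocyte genes, which include globins, summed to 156 to 160 CPM in input, 202 to 216 in IgG and 687 to 897 in acRIP. In the tests described below, 1 of these 6 genes was called higher in acRIP over IgG and 1 lower, 16.7% each. The shares of all tested genes were 11.5% and 20.9%. The median log2 fold change of the 6 was -0.0015, so not all of them rose with the sum. By the methods, an ac4C-containing β-globin probe had been added to the RNA, and whether it added to these counts was not tested.

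The clustered protocadherins were a minor part of the testis RNA, and Pcdha2 led them. All 57 together took 81.9 ± 2.89 CPM (SD, n = 3) in input, 55.7 ± 5.24 in IgG and 52.4 ± 3.07 in acRIP. Pcdha2 alone held 33.6% to 42.6% of these counts in input, 34.0% to 42.5% in IgG and 21.5% to 26.4% in acRIP. In input, 36 members had a count in all 3 libraries, and their median level was 0.539 CPM against 4.75 CPM for the 25160 genes of the table counted in all 3. In bulk tissue, fewer cells using a gene and less RNA per cell cannot be told apart. Of the members' 281 counts above 0, 80.1% were even numbers, against 68.6% over all genes, and whether the mates of a read pair were counted separately is not given in the sources used here.

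Levels per gene length were low. With counts divided by the deposited length (FPKM), Pcdha2 stood at 5.80 ± 0.545 (SD, n = 3) in input, followed by Pcdhga12 at 1.30 ± 0.157, Pcdhb1 at 1.23 ± 0.136, Pcdha12 at 1.14 ± 0.226 and Pcdhb3 at 1.11 ± 0.104. Only the first of these gaps was larger than the spread between libraries. The median member had 0.0244 FPKM in the alpha, 0.0473 in the beta and 0.0602 in the gamma cluster. Dividing by unshared bases alone raised the alpha and gamma medians to 0.119 and 0.176 and left the beta median at 0.0473. On that scale the order in input was Pcdha2 (12.4 ± 1.17), Pcdha12 (3.13 ± 0.620), Pcdhga12 (2.11 ± 0.253), Pcdhgb2 (1.63 ± 0.173) and Pcdhgc5 (1.60 ± 0.386), with Pcdhgb2 and Pcdhgc5 not apart beyond their SD. On the same scale, the median of all 22510 tested genes was 2.51, against 0.420 for the 23 tested members. Over all genes with unshared bases, tested or not, it was 0.0805, against 0.0583 for the 56 members with such bases.

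In acRIP, most members were counted in every library or in none, as were most genes of the table. Of the 54 members with a count anywhere, 33 were at 0 in all 3 acRIP libraries, 4 were counted in 1, 1 was counted in 2 and 16 were counted in all 3. The shares at 0 in all libraries of a group were 61.1% in acRIP, 27.8% in IgG and 3.70% in input. Over the 35699 genes of the table with a count, they were 32.8%, 17.4% and 6.86%. In acRIP, 7.41% and 1.85% of the members were counted in 1 and in 2 libraries, against 5.37% and 3.67% of those genes. The shares in IgG were 11.1% and 18.5%, against 8.25% and 7.61%. For input they were 14.8% and 14.8%, against 13.2% and 9.45%. Of the 36 members counted in all input libraries, 18 were at 0 in all acRIP libraries, against 16.0% of such genes in the table, whose levels were higher as given above. Every member with a mean of at least 10 counts in a group was counted in all 3 libraries of that group, 20 in input, 18 in IgG and 16 in acRIP. Nearly all genes of the table with such a mean were too: 21672 of 21708 in input, 20856 of 20905 in IgG and 19014 of 19028 in acRIP.

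**Figure D2:**
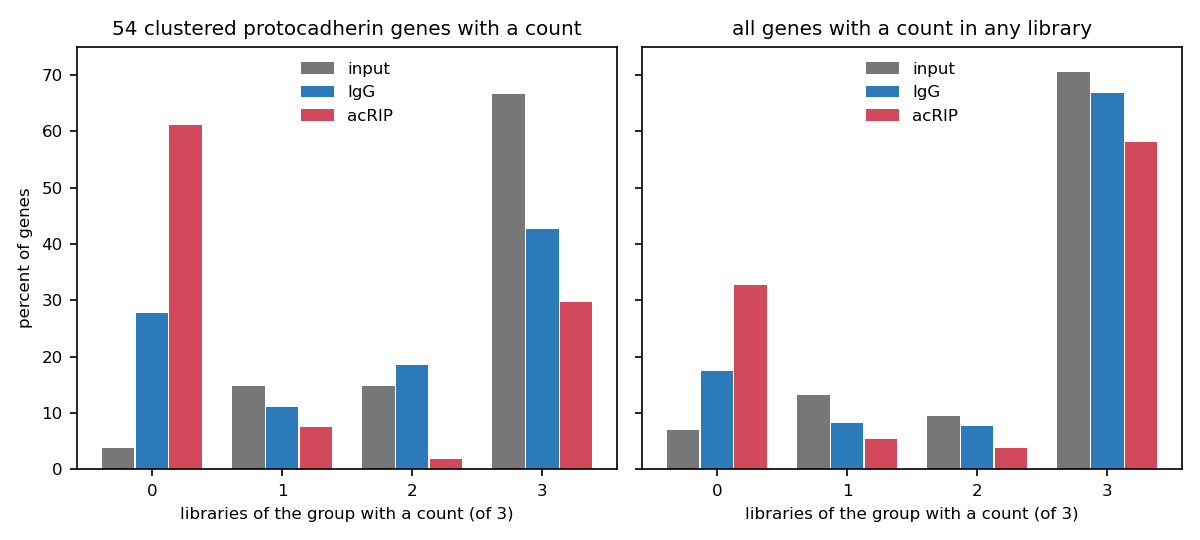
Percent of genes (y axis) by the number of libraries of a group with a count, from 0 to 3 (x axis), for the 54 clustered protocadherin genes with a count anywhere and for all genes with a count, in input, IgG and acRIP. For the protocadherins, 61.1% were at 0 in all acRIP libraries and 29.6% were counted in all 3.

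**Figure D3:**
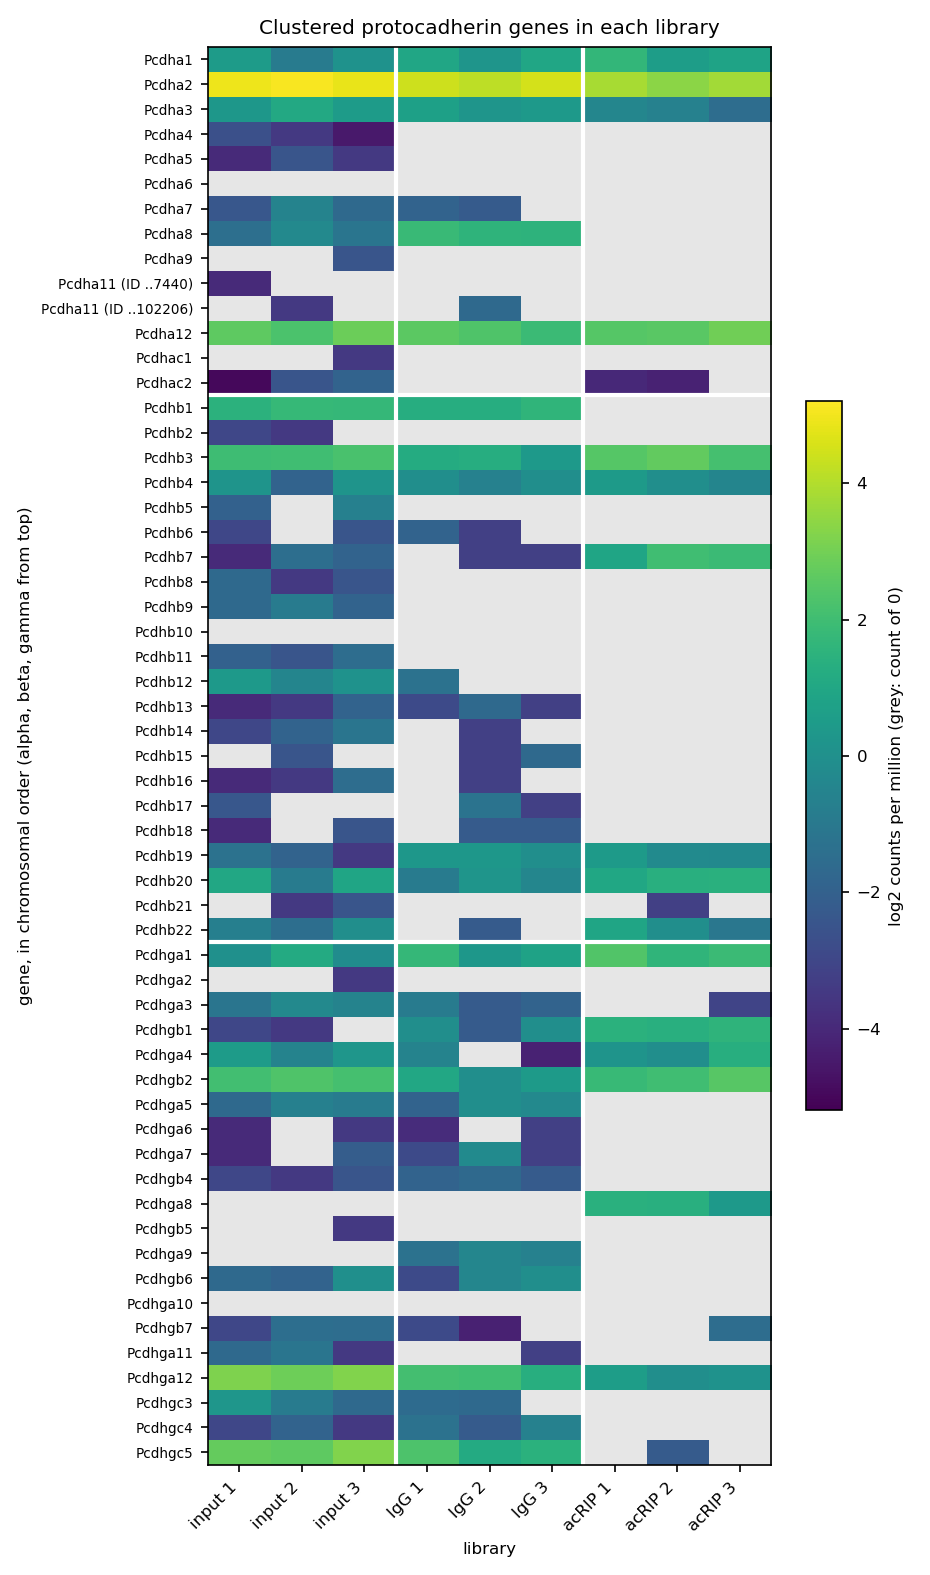
Log2 CPM of each of the 57 genes (rows, in chromosomal order) in each of the 9 libraries (columns), with a count of 0 in grey. Pcdha2 is the brightest row in every library, Pcdhga8 has colour in the acRIP libraries only, and Pcdhb1 and Pcdha8 are grey in acRIP alone.

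The summed counts of each cluster are described here without a test. The alpha sum was 41.3 ± 2.22 CPM (SD, n = 3) in input, 32.0 ± 2.78 in IgG and 21.9 ± 2.94 in acRIP, with no overlap between libraries of different groups. Without Pcdha2 the alpha sums were 10.2 ± 0.898, 11.4 ± 1.88 and 9.09 ± 0.956 CPM, so the order of the groups rested on that gene. The beta sum was 14.1 ± 2.39 CPM in input, 8.62 ± 0.901 in IgG and 14.2 ± 1.64 in acRIP, with every acRIP library above every IgG library and overlap between acRIP and input. The gamma sum was 26.6 ± 2.17 CPM in input, 15.0 ± 3.30 in IgG and 16.3 ± 1.73 in acRIP, where IgG and acRIP overlapped. These sums were made by few genes, since the 5 highest members of a cluster held at least 97.5% of its counts in every library for alpha, 73.4% for beta and 70.3% for gamma.

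**Figure D4:**
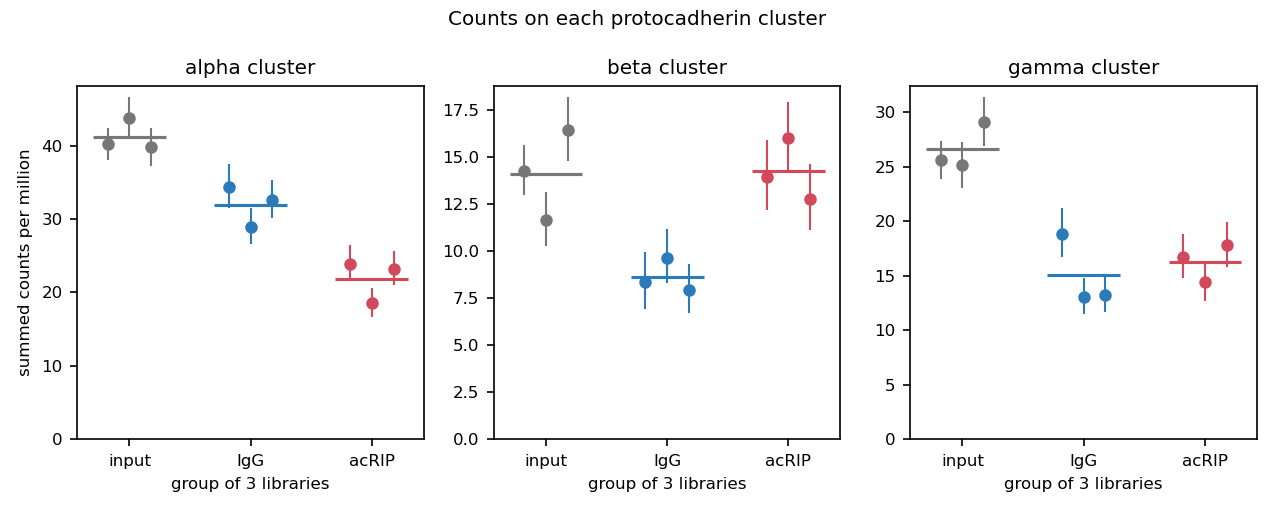
Summed CPM on the alpha, beta and gamma clusters (y axes starting at 0, different scales) in each library of input, IgG and acRIP. Points are libraries with their exact Poisson 95% interval, which covers counting error only, and horizontal lines are group means, which fall from input to acRIP for alpha and are lowest in IgG for beta.

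For the tests, 23 of the 57 members had enough counts: 5 alpha, 8 beta and 10 gamma genes. Of these, 2 (Pcdhb7 and Pcdhga8) passed the filter on low counts through the acRIP group alone and Pcdhb12 through input alone, so they had to differ between groups and no p-value is given for the differences that the filter fixed. A gene was called when edgeR's quasi-likelihood test gave a Benjamini-Hochberg adjusted p under 0.05 over all tested genes and the fold change was over 2. In acRIP over IgG, 9 tested members were higher (7 without those 3) and 8 were lower, while 11.5% of all 22510 tested genes were called higher and 20.9% lower. In acRIP over input, 6 were higher (4 without them) and 10 lower (9 without them), against 17.7% and 22.9% of all tested genes. In IgG over input, 3 were higher and 7 lower (6 without them), against 13.5% and 7.22%. Against both IgG and input, 4 members were higher in acRIP (Pcdhb7, Pcdhga1, Pcdhgb1 and Pcdhga8) and 8 were lower (Pcdha3, Pcdha8, Pcdhb1, Pcdhga3, Pcdhga5, Pcdhgb6, Pcdhga12 and Pcdhgc5), with 7.88% and 17.0% of all tested genes called in the same ways. Of the 20 tested members other than Pcdhb7, Pcdhga8 and Pcdhb12, 2 were higher (Pcdhga1 and Pcdhgb1) and 8 lower. Pcdhgb1, Pcdha8, Pcdhb22, Pcdhga3, Pcdhga5 and Pcdhgb6 are among these 20 and stay in the counts above, which thus rest in part on the filter. Without acRIP for Pcdhgb1 and without IgG for Pcdha8, too few libraries reached the filter's cutoff for a test. The same held for Pcdhb22 without acRIP or without input, and for Pcdhga3, Pcdhga5 and Pcdhgb6 without input or without IgG. The differences of Pcdhgb1 in acRIP and of Pcdha8 in IgG are therefore a description and are given without p-values. So are those of Pcdhb22 between IgG and the other groups, and those of Pcdhga3, Pcdhga5 and Pcdhgb6 between acRIP and the other groups. The 3 comparisons share libraries and are not independent of each other. The median log2 fold changes of the tested members were 0.30 for acRIP over IgG, 0.13 for acRIP over input and -0.28 for IgG over input, beside medians of -0.09, -0.10 and -0.01 over all tested genes. The first and second of these medians fell below 0 when libraries were left out in turn (-0.37 and -0.0121 at the lowest) and with no filter beyond 1 count (-0.0407 and -3.33), so neither had a fixed sign. The number of lower calls depended on the filter on low counts: with at least 10 counts in total, 43 members were tested and 15 were lower in acRIP than in IgG, while after halving all counts, as if both mates had been counted, 18 were tested and 5 were lower.

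**Figure D5:**
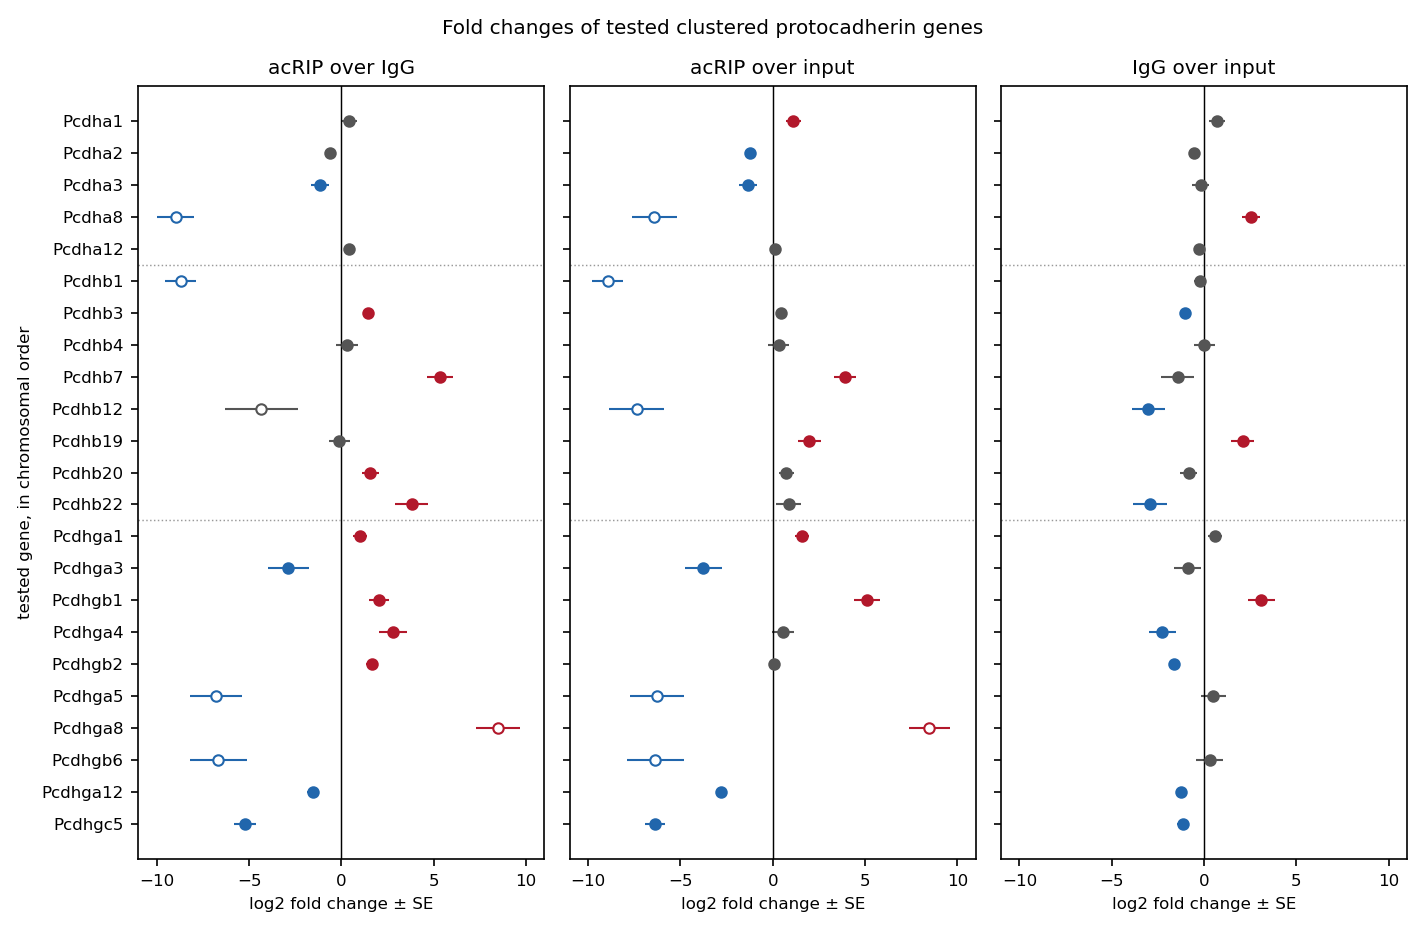
Log2 fold change ± SE (x axes) of the 23 tested genes in chromosomal order (y axis) for acRIP over IgG, acRIP over input and IgG over input. Red marks genes called higher, blue genes called lower and grey genes not called, open points have a group at 0 in all 3 libraries so that their distance from 0 depends on the fit, and no point is drawn where both groups are at 0.

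Where a group held no count, the fold change is given as a lower bound computed against 3 counts in each of its libraries. These bounds become smaller by a factor of 2 if both mates of each read pair were counted, so both values are given.

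Among the alpha genes, Pcdha8 (ENSMUSG00000103800) was counted most in IgG. It had 12, 18 and 10 counts in input replicates 1 to 3, 53, 55 and 54 in IgG, and 0, 0 and 0 in acRIP. The 3 groups did not overlap in CPM. Pcdha8 was higher in IgG than in input by a log2 fold change of 2.55 ± 0.49 (SE). In acRIP it was lower than in IgG by at least 17.3-fold (8.64-fold with read pairs). Both differences are a description, because the gene would not have been tested without its IgG libraries. Against input it was lower in acRIP by at least 2.96-fold (1.48-fold with read pairs, adjusted p = 3.30e-05), a call lost when only the 6 libraries of that comparison were fitted.

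Pcdha2 (ENSMUSG00000104148), the leading member, fell in a graded way. It had 953, 756 and 635 counts in input, 307, 339 and 425 in IgG, and 231, 196 and 226 in acRIP. In CPM the groups did not overlap, with a mean of 31.1 ± 2.92 (SD, n = 3) in input, 20.6 ± 2.42 in IgG and 12.8 ± 2.03 in acRIP. The log2 fold change of acRIP over input was -1.21 ± 0.12 (SE, adjusted p = 3.75e-10). Against IgG it was -0.64 ± 0.13 (adjusted p = 6.72e-05), under the 2-fold limit.

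Pcdha12 and Pcdha1 were recovered in all groups. Pcdha12 had 195, 106 and 160 counts in input, 88, 96 and 68 in IgG, and 88, 108 and 128 in acRIP, and its groups overlapped in CPM. Its log2 fold change of acRIP over IgG was 0.41 ± 0.23 (SE, adjusted p = 0.115). Pcdha1 had 45, 12 and 24 counts in input, 28, 22 and 36 in IgG and 51, 28 and 30 in acRIP. It was higher in acRIP than in input (1.13 ± 0.43, adjusted p = 0.0203), a call lost without acRIP replicate 1 (0.75) or input replicate 2 (0.83), and not than in IgG (0.41 ± 0.43, adjusted p = 0.410).

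Pcdha3 had 39, 46 and 32 counts in input, 24, 22 and 24 in IgG and 12, 12 and 6 in acRIP, so that the acRIP libraries were the lowest in CPM. It was called lower in acRIP than in IgG (-1.16 ± 0.50, adjusted p = 0.0418). That call was lost without input replicate 2, IgG replicate 1 or 3, or acRIP replicate 2 or 3, with log2 fold changes from -1.24 to -0.90. Against input the log2 fold change was -1.35 ± 0.49 (adjusted p = 0.0139), lost without acRIP replicate 3 (-1.09) or input replicate 2 (-1.12). The 9 alpha genes that were not tested had at most 15 counts in any library, and Pcdha6 had 0 in all 9. Of the alpha C-type genes, Pcdhac1 had a single library with counts (2 in input replicate 3), and Pcdhac2 had 1, 4 and 6 counts in input, 0 in all IgG libraries and 1, 1 and 0 in acRIP.

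Among the beta genes, Pcdhb7 and Pcdhb1 lay at opposite ends. Pcdhb7 (ENSMUSG00000045062) had 2, 8 and 6 counts in input, 0, 2 and 2 in IgG, and 30, 76 and 63 in acRIP. All acRIP libraries were above all others, and the log2 fold change was 5.35 ± 0.72 (SE) over IgG. Relative to input it was 3.92 ± 0.59. As it was tested through its acRIP level alone, these values are a description. Pcdhb1 (ENSMUSG00000051663) had 87, 76 and 73 counts in input, 36, 46 and 56 in IgG, and 0 in all 3 acRIP libraries. It was lower in acRIP than in IgG by at least 14.5-fold (7.24-fold with read pairs, adjusted p = 7.60e-10) and than in input by at least 17.1-fold (8.53-fold with read pairs, adjusted p = 7.38e-11), while IgG and input differed by a log2 fold change of -0.23 ± 0.33 (adjusted p = 0.591).

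Pcdhb3, Pcdhb20 and Pcdhb22 were higher in acRIP than in IgG but not than in input. Pcdhb3, the beta gene with the most counts, had 123, 88 and 103 in input, 34, 46 and 25 in IgG, and 87, 120 and 73 in acRIP. Its acRIP libraries lay above all IgG libraries and overlapped input in CPM. The log2 fold change was 1.46 ± 0.28 for acRIP over IgG (adjusted p = 3.17e-05) and 0.45 ± 0.25 for acRIP over input (adjusted p = 0.107), and IgG over input was -1.01 ± 0.27 (adjusted p = 0.00250), the last under the 2-fold limit without IgG replicate 3 (-0.77) or input replicate 3 (-0.93). Pcdhb20 had 64, 12 and 42 counts in input, 8, 22 and 14 in IgG and 32, 48 and 44 in acRIP, with a log2 fold change over IgG of 1.57 ± 0.46 (adjusted p = 0.00391). Input replicate 2 was the lowest of its group, and IgG was also called lower than input when that library was left out (-1.21). Pcdhb22 had 19, 8 and 21 counts in input, 0, 4 and 0 in IgG and 30, 18 and 8 in acRIP. Its log2 fold change over IgG was 3.80 ± 0.90, and 7.52 without IgG replicate 2, the only IgG library with a count. IgG over input was -2.94 ± 0.92, and -6.65 without that library. Both differences are a description, because the gene would not have been tested without its acRIP or without its input libraries. Both calls were lost with halved counts and when only the 6 libraries of the comparison were fitted.

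Pcdhb19 and Pcdhb12 differed between input and both other groups. Pcdhb19 had 13, 6 and 2 counts in input, 18, 23 and 18 in IgG, and 22, 16 and 14 in acRIP. Both precipitated groups were above input, by 2.09 ± 0.62 in IgG (adjusted p = 0.00514) and 1.98 ± 0.62 in acRIP (adjusted p = 0.00536), and acRIP over IgG was -0.11 ± 0.57 (adjusted p = 0.880). Pcdhb12 had 42, 16 and 24 counts in input, 6, 0 and 0 in IgG and 0 in all acRIP libraries. It was lower in acRIP than in input by at least 5.65-fold (2.83-fold with read pairs) and was not called against IgG (adjusted p = 0.0571), a call that appeared without IgG replicate 2 or 3 (adjusted p = 0.0289 and 0.0281). For IgG over input the log2 fold change was -3.03 ± 0.89, and -7.41 without IgG replicate 1, the only IgG library with a count, and DESeq2 did not call it. The differences from input are a description, since the gene was tested through its input level alone. An antisense gene over Pcdhb12, Gm37446, had 14, 6 and 6 counts in input, 0 in all IgG libraries and 0, 1 and 0 in acRIP. Whether its transcripts add to the counts of Pcdhb12 was not tested. Pcdhb4, the remaining tested beta gene, was not called in any comparison, with log2 fold changes of 0.02 to 0.32. The 14 beta genes that were not tested had at most 14 counts in any library, and the only count among them in acRIP was 2 for Pcdhb21 in replicate 2.

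Every tested gamma gene was called in acRIP over IgG, 5 higher and 5 lower, against 11.5% and 20.9% of all tested genes. Among the higher ones, Pcdhga8 and Pcdhgb1 would not have been tested without their acRIP libraries. Among the lower ones, Pcdhga3, Pcdhga5 and Pcdhgb6 would not have been tested without their IgG libraries. The calls of Pcdhga1, Pcdhga3, Pcdhga5 and Pcdhgb6 were lost under some alternatives. Pcdhga8 (ENSMUSG00000103897) had 42, 48 and 22 counts in acRIP and 0 in all 6 other libraries. It was higher in acRIP by at least 12.9-fold over IgG (6.44-fold with read pairs) and at least 18.8-fold over input (9.40-fold with read pairs), which is a description because the gene was tested through its acRIP level alone. An antisense gene that overlaps 416 of its bases together with Pcdhga7, Gm37165, had 2 counts in acRIP replicate 1 and 0 in the other libraries.

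Pcdhgb1 (ENSMUSG00000103037) rose in steps. It had 4, 2 and 0 counts in input, 14, 4 and 18 in IgG, and 44, 48 and 50 in acRIP, without overlap in CPM between the groups. Its log2 fold change was 2.01 ± 0.54 for acRIP over IgG, 5.12 ± 0.69 for acRIP over input and 3.10 ± 0.74 for IgG over input (adjusted p = 0.000706). The values for acRIP are a description, because the gene would not have been tested without its acRIP libraries. The call of Pcdhgb1 in IgG over input was lost when only the 6 libraries of that comparison were fitted. Pcdhga1 had 32, 49 and 20 counts in input, 48, 23 and 32 in IgG and 84, 56 and 62 in acRIP. All its acRIP libraries were above input in CPM, whereas acRIP replicate 2 lay below IgG replicate 1. It was higher in acRIP than in input by 1.61 ± 0.38 (adjusted p = 0.000377) and than in IgG by 1.01 ± 0.38 (adjusted p = 0.0210), and the second call was lost without IgG replicate 2 (0.74), IgG replicate 3 (0.90) or acRIP replicate 1 (0.76) and with library totals in place of the normalization factors (0.96).

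Pcdhgb2 and Pcdhga4 were lower in IgG than in both other groups. Pcdhgb2 had 129, 111 and 97 counts in input, 30, 18 and 26 in IgG and 56, 76 and 96 in acRIP. The log2 fold change was 1.66 ± 0.31 for acRIP over IgG (adjusted p = 2.25e-05), 0.06 ± 0.27 for acRIP over input (adjusted p = 0.861) and -1.61 ± 0.30 for IgG over input (adjusted p = 3.47e-05). Pcdhga4 had 44, 15 and 27 counts in input, 10, 0 and 1 in IgG and 18, 18 and 42 in acRIP. Its log2 fold change of acRIP over IgG was 2.79 ± 0.74 (adjusted p = 0.00161) and 5.59 without IgG replicate 1, and IgG over input was -2.26 ± 0.74 (adjusted p = 0.0115), -5.04 without IgG replicate 1, with the call lost without IgG replicate 2 or 3 or input replicate 1 (-1.63, -1.76 and -2.02).

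The gamma genes that fell included the one with the most counts and the best-covered C-type gene. Pcdhga12 (ENSMUSG00000102428) had 287, 165 and 209 counts in input, 62, 75 and 47 in IgG and 24, 18 and 18 in acRIP. The groups did not overlap in CPM, and the log2 fold change was -1.25 ± 0.24 for IgG over input (adjusted p = 3.93e-05), -1.55 ± 0.29 for acRIP over IgG (adjusted p = 2.71e-05) and -2.81 ± 0.27 for acRIP over input (adjusted p = 9.74e-11). Pcdhgc5 (ENSMUSG00000102543) had 207, 135 and 209 counts in input, 72, 42 and 50 in IgG and 0, 4 and 0 in acRIP. It was lower in acRIP than in IgG by -5.23 ± 0.58 on the log2 scale (adjusted p = 4.02e-09) and than in input by -6.38 ± 0.53 (adjusted p = 2.35e-12), values of -9.03 and -10.18 without acRIP replicate 2, the only acRIP library with a count. IgG was lower than input by -1.16 ± 0.30 (adjusted p = 0.00188), under the 2-fold limit without IgG replicate 2 (-0.94) or input replicate 3 (-0.94).

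Pcdhga5, Pcdhgb6 and Pcdhga3 were at or near 0 in acRIP from low levels elsewhere. Pcdhga5 had 10, 14 and 12 counts in input, 4, 18 and 15 in IgG and 0 in acRIP. Its acRIP level was at least 3.73-fold below IgG (1.86-fold with read pairs) and 2.68-fold below input (1.34-fold with read pairs). Pcdhgb6 had 10, 6 and 22 counts in input, 2, 14 and 18 in IgG and 0 in acRIP. Its acRIP level was at least 3.39-fold below IgG (1.69-fold with read pairs) and 2.83-fold below input (1.42-fold with read pairs). With halved counts neither gene had enough counts to be tested. Pcdhga3 had 14, 18 and 15 counts in input, 8, 4 and 5 in IgG and 0, 0 and 2 in acRIP. With 2 counts in acRIP, the ratio of summed counts was 8.10 for IgG over acRIP (exact 95% interval 1.92 to 72.3, counting error only). For input over acRIP it was 15.1 (3.96 to 129). The call against IgG was lost without IgG replicate 1 or acRIP replicate 1 or 2. Without acRIP replicate 3 the log2 fold change was -5.80 (-6.68 against input). For Pcdhga5, Pcdhgb6 and Pcdhga3 the differences from acRIP are a description. None of these genes would have been tested without its input or without its IgG libraries.

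The gamma genes that were not tested included Pcdhgc3, which had 38, 12 and 7 counts in input, 5, 6 and 0 in IgG and 0 in acRIP, and Pcdhgc4, which had 4, 6 and 2 in input, 6, 4 and 12 in IgG and 0 in acRIP. Pcdhga9, named here for its pattern after its values were seen, had 6, 14 and 12 counts in IgG and 0 in all 6 other libraries. Of all untested gamma genes, acRIP counts were limited to Pcdhgb7, with 6 in replicate 3. Of the C-type genes, Pcdhac1, Pcdhgc3 and Pcdhgc4 were thus at 0 in every acRIP library, and Pcdhac2 and Pcdhgc5 had at most 4 counts in any. Of all 57 members, 36 (63.2%) were at 0 in every acRIP library.

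The base composition of the exons is given as a description. The median GC content was 47.3% in the alpha, 45.9% in the beta and 52.4% in the gamma genes, and 48.3% over all tested genes. The 9 members higher in acRIP than in IgG had a median of 49.9% (range 44.7% to 53.1%), and the 8 lower members had 51.1% (47.1% to 53.9%). The median cytidine share of the exons was 25.9% and 26.4%.

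Other protocadherins and the genes around the clusters were tested in the same fit, in which 7.88% of all tested genes were higher and 17.0% lower in acRIP against both groups. Of 12 non-clustered protocadherin genes, 9 were tested, and against both groups 1 was higher in acRIP (Pcdh9) and 2 were lower (Pcdh7 and Pcdh8). Of 14 genes next to or between the clusters, 13 were tested, and those called against both groups were Fchsd1 and Arap3, which were lower and at 0 in all acRIP libraries. Pcdh1 and Pcdh12 are in both of these lists and were not called in acRIP over either group. Of 23 classical and related cadherin genes, 17 were tested, 3 of them higher and 9 lower against both groups. Among 39 Hox genes, 15 were tested and 4 were higher against both groups, and among 1093 olfactory receptor genes 78 were tested, 16 higher and 13 lower.

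Genes that act on protocadherin promoters were better covered than the protocadherins themselves. All 28 regulators listed (CTCF, cohesin and silencing factors) were tested. In acRIP over IgG, 1 rose (Dnmt1, the maintenance DNA methyltransferase, log2 fold change 1.23) and 2 fell (Smc1a at -1.49 and Rad21l, cohesin subunits, the latter at 0 in all acRIP libraries). These are 3.57% and 7.14% of the list, against 11.5% and 20.9% of all tested genes. In acRIP over input, 10 rose (35.7%) and 4 fell (14.3%), against 17.7% and 22.9%, and in IgG over input, which shares the input libraries, 8 rose (28.6%) and 1 fell (3.57%), against 13.5% and 7.22%. Ctcf rose over input in both precipitated groups, by 2.02 in acRIP and 2.22 in IgG, and its acRIP over IgG was -0.21 (adjusted p = 0.194). Of 29 signalling, processing and actin partners of protocadherins, 28 were tested. In acRIP over IgG the 6 that were called (21.4%, against 20.9% of all tested genes) fell, among them Cyfip2 of the WAVE complex (-2.28) and Psen2 of the γ-secretase (-1.56). In acRIP over input 6 rose (21.4%) and 4 fell (14.3%), and in IgG over input 9 rose (32.1%) and 1 fell (3.57%), against the shares of all tested genes given for the regulators. Of the 6 that rose in acRIP over input, Fyn, Rock1, Rac1, Ctnnb1 and Marcks were also called higher in IgG over the same input libraries, and Wasf1 was not.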

How the data were processed

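RNA from testes of WT male mice was sequenced as input, IgG and acRIP, with 3 libraries each, and the labels gave each library its group and number. The authors deposited whole-number counts per gene, not normalized. Per the submitters' processing notes the tools were Trim Galore 0.6.7, STAR 2.7.10a and featureCounts 2.0.2 with mm10. Which annotation was counted, with what strand setting, and whether each mate of a pair added a count is not given in the sources used here. Total counts per library ranged from 14647542 to 31340090.

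Gene identifiers were looked up in GENCODE vM21, which held 55141 of the 55401 by identifier without version. Exon lengths, shared bases and GC content were computed from the exon positions deposited with the counts and the mm10 sequence. CPM used the library totals, and FPKM divided CPM by the deposited gene length in kilobases. Genes were filtered with filterByExpr (minimum count 10, equal to 0.537 CPM) and tested in edgeR 4.0.16 under R 4.3.3 with TMM factors and the quasi-likelihood test, fitted to all 9 libraries and 22510 genes, with Benjamini-Hochberg adjustment. The SE was the log2 fold change divided by the square root of F. The steps were tested on simulated data. DESeq2 1.42.0, other normalizations and filters, a test against a fold change of 2, halved counts, the 6 libraries of a comparison alone, a replicate block and leaving out each library in turn were alternatives. Poisson intervals and floors cover counting error only.

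The members, gene lists and marker lists were chosen with earlier results of these data known. Genes are named in full if they had 1 of the 4 highest mean CPM values of their cluster, are C-type, had 1 of the 3 highest or 3 lowest log2 fold changes of acRIP over IgG in their cluster, or were called in acRIP against both groups, and other tested members are given where their cluster is described. Sequences of members are not reported here.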

Additional observations from a re-analysis of the deposited data

How the results depend on the processing

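Some calls were ended by no alternative, leaving out any library included. In acRIP against both groups these were the calls of Pcdhb1, Pcdhb7, Pcdhgb1, Pcdhga8, Pcdhga12 and Pcdhgc5. In acRIP over IgG they were those of Pcdha8, Pcdhga4 and Pcdhgb2, and in IgG over input that of Pcdha8. Pcdhb7, Pcdhgb1 and Pcdhga8 would not have been tested without their acRIP libraries, nor Pcdha8 without its IgG libraries. For these 4 genes the result says nothing of stability. The numbers of called members moved with the filter on low counts and with the test against a fold change of 2. With at least 10 counts in total (43 members tested), 15 were lower in acRIP over IgG, 21 in acRIP over input and 11 in IgG over input, and the median log2 fold changes were -1.52, -3.77 and -0.59. With no filter beyond 1 count (54 tested), 14 and 18 were lower in acRIP over IgG and over input, and the medians were -0.0407, -3.33 and -1.11. With halved counts (18 tested), 5, 6 and 4 were lower in the 3 comparisons, 5 were lower in acRIP than in both groups, and the median of acRIP over input was 0.37. With only the 6 libraries compared (18 tested), 4 and 6 were lower in acRIP over IgG and over input, 3 were lower than in both, and that median was 0.46. These settings differ in how many members were tested. Library totals alone gave a median of 0.0496 for acRIP over input. Tested against a fold change of 2, 3 members were higher in acRIP over input and 0 were lower in IgG over input, where DESeq2 called 6 and edgeR's test against no change 7; the cause was not tested.

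Leaving out each library in turn gave 8 to 9 members higher and 8 to 10 lower in acRIP over IgG, 5 to 6 and 9 to 11 in acRIP over input, 3 to 5 and 5 to 8 in IgG over input, and 3 to 4 higher and 7 to 9 lower than in both groups. The medians ranged from -0.37 to 0.10 for acRIP over IgG, -0.0121 to 0.12 for acRIP over input and -0.49 to -0.25 for IgG over input. The summed CPM in input, IgG and acRIP ranged from 40.0 to 42.0, 30.8 to 33.5 and 20.9 to 23.6 for alpha, 12.9 to 15.3, 8.12 to 8.98 and 13.3 to 15.0 for beta, and 25.3 to 27.3, 13.1 to 16.0 and 15.6 to 17.2 for gamma. The median FPKM in input ranged from 0.0217 to 0.0322 for alpha, 0.0435 to 0.0464 for beta and 0.0430 to 0.0572 for gamma. With ribosomal RNA-like and mitochondrial genes left out of the totals, the acRIP sums were 24.9, 16.2 and 18.5 CPM, and the median FPKM over unshared bases was 0.119 for alpha and 0.176 for gamma.

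Sign changes were limited to log2 fold changes that were not called: Pcdha12 in acRIP over input (range on leaving out a library -0.0146 to 0.268, below 0 without acRIP replicate 3 or input replicate 2), Pcdha3 in IgG over input (-0.3387 to 0.043, above 0 without input replicate 2), Pcdhb19 in acRIP over IgG (-0.3703 to 0.0247, above 0 without acRIP replicate 3), Pcdhgb2 in acRIP over input (-0.0233 with library totals alone, and -0.1508 to 0.2073, below 0 without acRIP replicate 3) and Pcdhgb6 in IgG over input (-0.1542 to 1.0947, below 0 without IgG replicate 3 or input replicate 2). For single genes, 1148 values under alternatives kept direction and side of the threshold, 47 lost a call and 5 gained one. A call was lost in a further 20 cases in which the gene was no longer tested. Libraries of the same number did not deviate together (r from -0.00659 to 0.0351). With the replicate number as a block, 9 members were higher and 7 lower in acRIP over IgG, 6 and 10 in acRIP over input, 3 and 7 in IgG over input, and 4 and 7 against both groups, with medians of 0.32, 0.14 and -0.27; the block ended the call of Pcdha3 in acRIP over IgG (adjusted p = 0.0567).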
